A study of Mus musculus with 8 samples.

Results

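The sarcomeric myosin heavy chain (MHC) genes were examined in gastrocnemius (GAS) muscle after prolonged knockdown of MYTHO, a gene linked to autophagy and muscle wasting. All 9 genes chosen by name, Myh1, Myh2, Myh3, Myh4, Myh6, Myh7, Myh7b, Myh8 and Myh13, had a probe set, a group of short array probes read as 1 value, and their 9 probe sets stood among 22206 in the table. Each gene had 1 probe set that named no other gene, and the authors flagged all 9 as expressed in both groups. The muscles came from male C57/Bl6j mice aged 22 weeks. At 10 weeks the GAS of one leg received an adeno-associated virus (AAV) with a short hairpin RNA against Mytho (AAV sh-RNA MYTHO, here MYTHO-KD), and the other leg a scramble hairpin (AAV sh-RNA scrmb, here scramble). Total RNA was taken 12 weeks later from samples of the GAS, with 4 muscles and 4 Clariom S Mouse arrays in each group. The region of the GAS that was sampled is not given, and the study states that its regions differ in fibre type. Both groups thus carried virus, and the U6 promoter that drives either hairpin is not restricted to muscle fibres. The labels name the muscles of a group as separate samples but do not tie legs to mice.

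Myosin heavy chains are the motor proteins of the thick filament, and the isoform in a fibre largely sets how fast it shortens. Adult mouse limb muscle uses a slow isoform (type I, from Myh7) and the fast isoforms IIA (Myh2), IIX (Myh1) and IIB (Myh4), and the mouse GAS is mostly fast. Embryonic (Myh3) and perinatal (Myh8) isoforms come first in development and return when fibres regenerate, while Myh6 belongs mainly to the heart and Myh13 to the eye muscles. The table gave 1 average and 1 standard deviation (SD) per group on the log2 scale rather than the values of single arrays. Whether the arrays of the groups overlapped could therefore not be read, and each group is described by the authors' average and SD.

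Myh3, Myh2, Myh1, Myh4, Myh8 and Myh13 lie side by side in this order on chromosome 11 of build mm10 and span 293.3 kb, and the 6 probe sets of that span were all theirs. The 250 bases before the transcript start that RefSeq gives for 5 of them are shown because they set the fast adult genes beside the developmental ones. These come from RefSeq (GRCm38.p6, plus strand, 5′ to 3′): chr11:67170777-67171026 for Myh2, chr11:67199852-67200101 for Myh1, chr11:67237562-67237811 for Myh4, chr11:67276874-67277123 for Myh8 and chr11:67078050-67078299 for Myh3. Capitals mark TATAAA, a match to the MEF2 motif, or the 14-base stretch TTCTAATTATATCC.
Myh2: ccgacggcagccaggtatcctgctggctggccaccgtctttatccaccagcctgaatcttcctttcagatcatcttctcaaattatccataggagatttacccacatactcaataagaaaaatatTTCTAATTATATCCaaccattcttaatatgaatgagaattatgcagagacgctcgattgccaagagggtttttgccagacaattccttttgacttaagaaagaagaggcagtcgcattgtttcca
Myh1: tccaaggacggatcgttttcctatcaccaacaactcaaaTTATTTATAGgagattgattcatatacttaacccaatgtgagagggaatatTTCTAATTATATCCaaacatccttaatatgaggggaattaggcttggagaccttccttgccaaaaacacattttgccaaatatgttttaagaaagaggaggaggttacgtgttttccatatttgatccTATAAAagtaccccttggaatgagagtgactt
Myh4: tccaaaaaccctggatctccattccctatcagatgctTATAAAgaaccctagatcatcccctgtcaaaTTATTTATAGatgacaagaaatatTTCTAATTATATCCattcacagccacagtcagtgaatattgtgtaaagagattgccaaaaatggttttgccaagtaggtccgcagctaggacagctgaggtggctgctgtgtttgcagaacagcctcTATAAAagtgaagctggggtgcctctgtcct
Myh8: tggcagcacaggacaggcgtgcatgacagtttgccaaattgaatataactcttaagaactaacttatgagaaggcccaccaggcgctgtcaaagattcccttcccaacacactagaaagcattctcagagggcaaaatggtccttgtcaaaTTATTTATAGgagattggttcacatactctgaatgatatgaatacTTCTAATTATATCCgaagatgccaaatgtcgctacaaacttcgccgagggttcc
Myh3: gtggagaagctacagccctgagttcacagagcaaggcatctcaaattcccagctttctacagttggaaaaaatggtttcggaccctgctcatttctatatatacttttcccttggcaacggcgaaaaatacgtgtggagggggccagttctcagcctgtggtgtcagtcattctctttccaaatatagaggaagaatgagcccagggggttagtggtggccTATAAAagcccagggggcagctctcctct
The 14-base stretch was chosen as the longest run common to the Myh2, Myh1, Myh4 and Myh8 windows, and on both strands it occurred in 4 of 32851 RefSeq promoter windows of this length, which were these 4. The same MEF2 match, TTATTTATAG, stood before Myh1, Myh4 and Myh8, and a MEF2 match was found in 2.92% of all windows. TATAAA, searched on the gene's strand, was present before Myh1, Myh3 and Myh4 and in 7.59% of all windows. The 14-base stretch began at -160 for Myh1 and -158 for Myh4, but at -125 for Myh2 and -54 for Myh8. The windows thus do not cover the same part of each promoter, and a TATAAA beyond their ends was not counted. The other motifs searched, on both strands, were the E-box CANNTG (7 of 9 members, 66.2% of all windows), the MCAT element GGAATG (4 of 9 members, 12.6%) and the CArG box (1 of 9 members, 1.47%). A match describes the letters of a window and says nothing on binding.

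The targeted gene, listed by its earlier symbol D230025D16Rik, averaged 7.71 (SD 0.66) in MYTHO-KD and 10.02 (SD 0.37) in scramble. Its difference of -2.31 (log2, standard error 0.304, limma adjusted p = 0.0138) ran in the direction of the labels. It passed 2-fold and the unadjusted p in every setting run, while its adjusted p was 0.173 in limma with no moderation. Averages over the table ran from 3.18 to 19.93, and 16 probe sets stood at 19.93 in both groups. The median SD was 0.27 in each group. The median difference over all probe sets was -0.01.

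Of the 9 MHC genes, the average was higher in MYTHO-KD for 5 and lower for 2. The other 2, Myh4 and Myh8, stood at the top of the scale in both groups and give no comparison. The median difference of 0.04 (log2) counts these 2 as equal. A gene was called when it differed at least 2-fold and its p, before adjustment, was below 0.05 in limma. Under this rule Myh3 rose and no member that could be compared fell, against 0.86% of all probe sets called higher and 0.257% called lower. With the p alone, Myh1, Myh2 and Myh3 passed, all of them higher, where 6.48% of all probe sets were higher and 5.52% lower. After Benjamini-Hochberg adjustment over the table no member had a limma p below 0.05 in either direction, and of all probe sets 0.18% did so as higher and 0.0946% as lower. In bulk RNA of a muscle sample, fewer cells of a type and less RNA per cell cannot be told apart. Pairs of averages or SDs are given with MYTHO-KD first unless named otherwise.

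**Figure D1:**
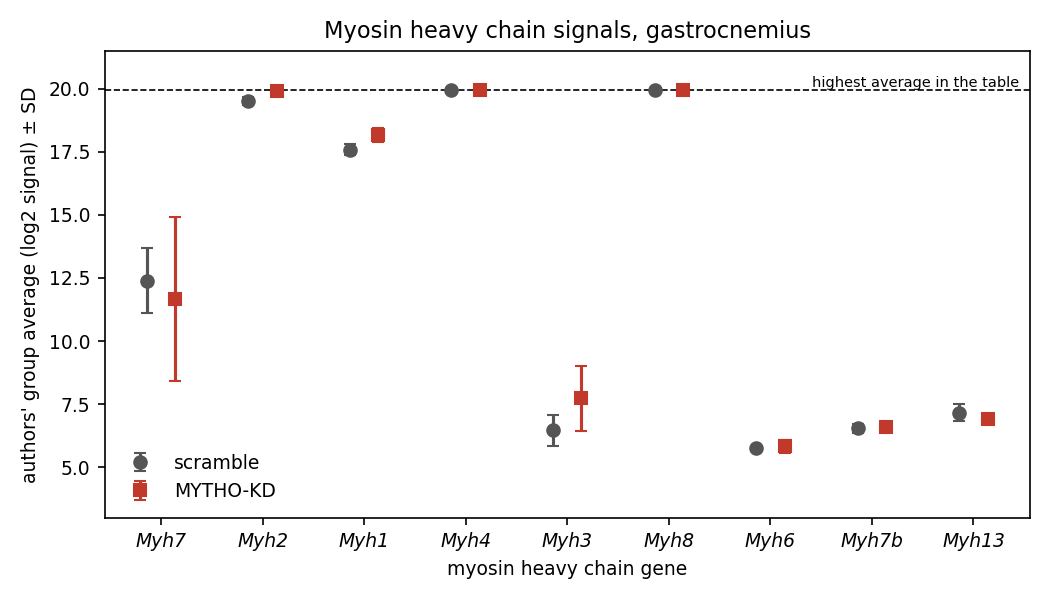
Authors' group averages of the 9 myosin heavy chain genes on the log2 scale (vertical axis), for scramble (grey circles) and MYTHO-KD (red squares), 4 arrays each. Bars are the authors' SDs and the dashed line is the highest average of the table, 19.93, which Myh4 and Myh8 reached in both groups.

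Among the adult fast isoforms, Myh1 and Myh2 had the higher averages in MYTHO-KD. Myh1, the IIX heavy chain (chr11:67200052-67224575, plus strand), averaged 18.17 (SD 0.28) in MYTHO-KD and 17.58 (SD 0.21) in scramble. The averages lay further apart than the sum of the SDs. Its difference was 0.59 (log2, standard error 0.188), a 1.51-fold higher signal with a 95% interval from 1.13-fold to 2.00-fold higher (limma adjusted p = 0.230). Myh1 thus stayed below the 2-fold limit. At a limit of 1.5-fold Myh1 and Myh3 were called higher and no member lower, beside 3.54% of all probe sets called higher and 2.25% lower, or 5.8% in either direction.

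Myh2, the IIA heavy chain, ends 2.534 kb before Myh1 begins (chr11:67171027-67197517, plus strand). It averaged 19.91 (SD 0.01) in MYTHO-KD and 19.5 (SD 0.16) in scramble. The MYTHO-KD arrays were almost without spread, 0.02 below the highest average in the table. The top of the scale can narrow a spread, so the p-values of Myh2 may be too low. The difference of Myh2 was 0.41 (standard error 0.152, limma adjusted p = 0.315), or 1.33-fold. Since scramble already stood only 0.43 below that level, the scale left hardly any room for a larger difference, and the size given is bounded by it.

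Myh4, which encodes the IIB heavy chain of the fastest fibres (chr11:67237725-67260447, plus strand), was listed at 19.93 in both groups with SDs of 0 and 0. These values give no comparison, since any change of a signal that stays above the top of the scale would be hidden. The perinatal gene Myh8 (chr11:67277124-67308634, plus strand) was listed likewise at 19.93 with SDs of 0. Within a tolerance of 0.05 of the top there were 18 probe sets in both groups, among them those of Acta1 (skeletal muscle actin), Myl1 (a fast myosin light chain), Pygm (muscle glycogen phosphorylase) and mitochondrial genes. Myh8 is the only one of these named for a developmental isoform of the thick filament. The heavy chain genes of the cluster are alike in sequence, and how far the probes of any of them, Myh1, Myh2, Myh4 and Myh8 included, also read the neighbours' transcripts was not tested.

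**Figure D2:**
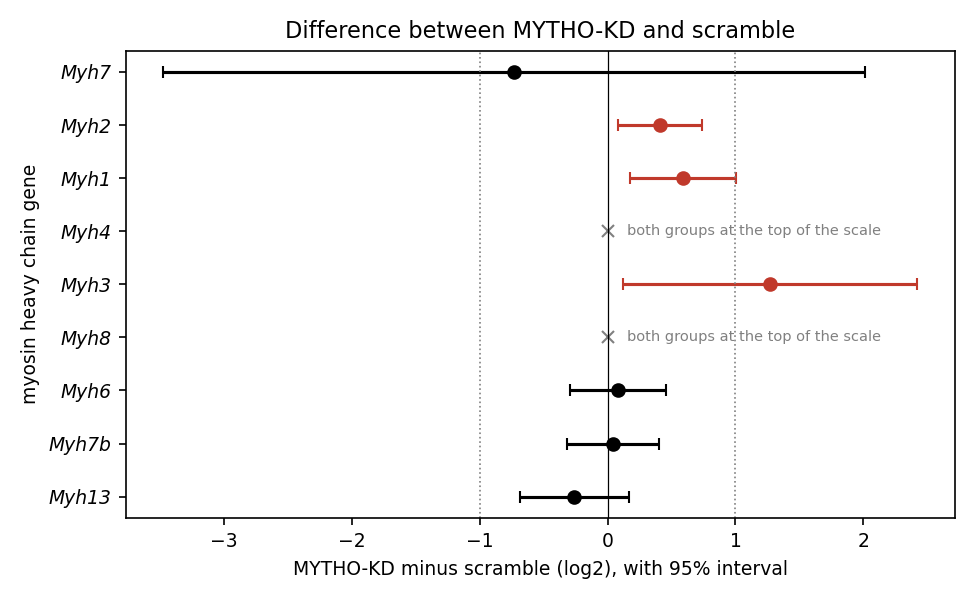
MYTHO-KD minus scramble for each myosin heavy chain gene (log2, horizontal axis), with the 95% interval from limma's moderated variance and dotted lines at 2-fold. Red marks an unadjusted p under 0.05 (Myh1, Myh2 and Myh3), and crosses mark Myh4 and Myh8, for which both groups stood at the top of the scale.

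Myh3, the embryonic heavy chain and the first gene of the cluster (chr11:67078300-67102291, plus strand), was the only member called higher under the 2-fold rule. Myh1 and Myh2 were also higher, with smaller limma p-values, but stayed under 2-fold. Myh3 averaged 7.73 (SD 1.28) in MYTHO-KD and 6.46 (SD 0.63) in scramble. The SD in MYTHO-KD was the 60th highest of 22206 there, so the MYTHO-KD samples differed widely among themselves, and the averages with their SDs overlapped. The difference was 1.27 (log2, standard error 0.527), 2.41-fold higher with a 95% interval from 1.09-fold to 5.35-fold (limma adjusted p = 0.366). The call depended on how the variance was estimated: without moderation, with a mean-variance trend or with unequal variances Myh3 no longer passed, and over all alternatives its adjusted p ran from 0.318 to 0.654.

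The slow heavy chain gene Myh7, used in type I fibres and in the heart (chr14:54970688-54994634, minus strand), showed the widest spread of the members. It averaged 11.67 (SD 3.26) in MYTHO-KD and 12.4 (SD 1.3) in scramble. Its SD ranked 3 of 22206 in MYTHO-KD and 26 in scramble, counted from the highest. The difference was -0.73 (log2, standard error 1.26, limma adjusted p = 0.883), with a 95% interval from 11.1-fold lower to 4.03-fold higher. A large change in either direction was thus not detectable with 4 arrays that differed so much.

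The 10 slow fibre partners of Myh7 spread in the same way. Tnni1 and Tnnc1, which encode the slow troponins I and C, had the highest and second highest SD in MYTHO-KD of the whole table, 3.67 and 3.4, against 1.43 and 1.17 in scramble. Tpm3 (slow tropomyosin) came with 2.35 against 0.77. For Atp2a2, the slow calcium pump SERCA2, they were 2.14 and 0.89. These are structural proteins of the slow thin filament and the pump that relaxes slow fibres. Tnnt1 (slow troponin T) followed with 2.08 and 0.72. Myl2, a slow light chain, had SDs of 1.99 and 1.11. The SD was higher in MYTHO-KD for 10 of the 10 partners, against 48.1% of all probe sets, and in MYTHO-KD it was above 1 (log2) for 7 of them, against 0.531% of all. In scramble it was above 1 for 3 of the 10, against 0.207% of all. The fast partners, described next, also had the higher SD in MYTHO-KD more often, for 8 of 12, at a lower level (median SD 0.18 in MYTHO-KD and 0.075 in scramble, against 2.035 and 0.745 for the slow partners). Which arrays carried these signals, and whether they were the same arrays for each gene, could not be read from the group values. The sampled region of the GAS is not given either, and its part in this spread was not tested.

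**Figure D3:**
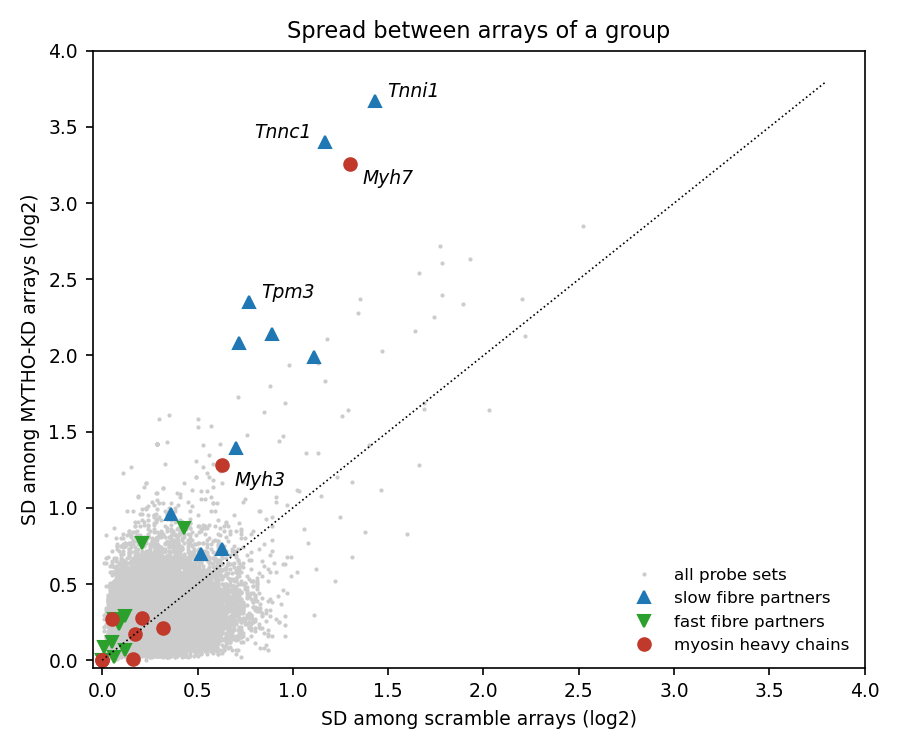
SD among the 4 scramble arrays (horizontal axis) against SD among the 4 MYTHO-KD arrays (vertical axis), both log2, for all 22206 probe sets (grey), the myosin heavy chains (red), 10 slow fibre partners (blue) and 12 fast fibre partners (green). Myh7, at 1.3 and 3.26, lies beside Tnni1 and Tnnc1, far above the dotted line of equal SDs.

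The average was higher in MYTHO-KD for 4 of the slow partners and lower for 6. Their median difference was -0.165, and 1 of 10 was called higher and none lower. That gene was Myoz2, which encodes a calcineurin-binding Z-disc protein of slow fibres and heart, at 17.37 in MYTHO-KD and 16.23 in scramble (difference 1.14, limma adjusted p = 0.200). Tnni1 had the most negative difference, -1.03, with a standard error of 1.41 (limma adjusted p = 0.839). The 12 fast partners had a median of -0.17, with the average lower in MYTHO-KD for 9, higher for 1 and equal for the 2 at the top of the scale, and none was called in either direction or had a limma p below 0.05 before adjustment. The most negative of them was Mylk4, a myosin light chain kinase family member, at 16.44 and 17.03 (difference -0.59, limma adjusted p = 0.494), followed by Mylk2, the skeletal light chain kinase, at 14.55 and 15.06 (difference -0.51, limma adjusted p = 0.651). Most of these genes were bright, with a median scramble average of 19.33, and 2 of them (Myl1 and Atp2a1, the fast calcium pump) stood at the top of the scale in both groups.

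The cardiac and specialised members had averages far below the fast adult genes and close between groups. Those of Myh6 and Myh7b lay below the median average of the table, 6.81 in each group, and those of Myh13 above it. Myh6, the alpha heavy chain of the heart (chr14:54941921-54966927, minus strand), averaged 5.83 (SD 0.27) in MYTHO-KD and 5.75 (SD 0.05) in scramble. Its 95% interval ran from 1.23-fold lower to 1.37-fold higher (limma adjusted p = 0.911). Myh7b, an ancient slow-type heavy chain (chr2:155611212-155634307, plus strand), was at 6.58 and 6.54 with an SD of 0.17 in either group, and its interval ran from 1.25-fold lower to 1.32-fold higher (limma adjusted p = 0.962). If the averages are plain means, both intervals excluded a 2-fold change. Myh13, the extraocular heavy chain (chr11:67321658-67371586, plus strand), was at 6.91 and 7.17 with SDs of 0.21 and 0.32. Its interval ran from 1.61-fold lower to 1.12-fold higher (limma adjusted p = 0.661). A true fall from signals at these levels can be hidden by the floor of the scale.

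Myh6, Myh7 and Myh7b each hold a microRNA gene, and these are known as regulators of slow and cardiac myosin expression. Their mature sequences are given because each is made from within a member, with the seed (bases 2 to 8) in capitals.
miR-208a-3p: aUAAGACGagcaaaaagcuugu
miR-208b-3p: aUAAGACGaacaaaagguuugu
miR-499-5p: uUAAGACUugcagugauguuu
By RefSeq (GRCm38.p6), miR-208a-3p lies within Myh6 at chr14:54949072-54949093 (minus strand), miR-208b-3p within Myh7 at chr14:54975710-54975731 (minus strand) and miR-499-5p within Myh7b at chr2:155622893-155622913 (plus strand). The miR-208 pair share their seed and differ at 3 of 22 bases, and the seed of miR-499-5p differs from theirs at 1 of 7 bases. No probe set named these microRNAs, and their levels were not analysed here. Of the long non-coding RNAs annotated at the Myh6 and Myh7 locus, Mhrt, antisense to it, was at 6.11 in MYTHO-KD and 6.27 in scramble (limma adjusted p = 0.883).

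The genes that work with the heavy chains were described with lists. The counts of all lists, the slow and fast partners included, stand beside 0.86% of all probe sets called higher and 0.257% called lower. Among 7 developmental sarcomere genes, 3 were called higher and none lower, with a median difference of 0.78. Mybph, a myosin-binding protein of the thick filament, rose by 3.13 (standard error 0.374, limma adjusted p = 0.00706). Csrp3, a muscle LIM protein that responds to load, rose by 2.74 (limma adjusted p = 0.0292), and Xirp1, which gathers at sites of fibre damage, rose by 1.14 (limma adjusted p = 0.0443). None of the 3 is an embryonic contractile isoform. Mybph and Csrp3 were known to be higher from earlier results of these data when the list was made, so its count and median are partly built in. Actc1, the cardiac actin that embryonic muscle uses, was at 14.99 and 14.21 (difference 0.78, limma adjusted p = 0.289). Tnnt2, the cardiac troponin T of embryonic muscle, was at 6.72 and 5.94 (difference 0.78, limma adjusted p = 0.234). Both had a smaller p than Myh3 and passed at 1.5-fold, but each stayed under 2-fold at 1.72-fold. Myl4, the embryonic light chain, had the same average of 11.42 in both groups, and the other 6 genes of the list had the higher average in MYTHO-KD.

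Of the 11 myogenic and fusion genes 1 was called higher and none lower (median 0.14). It was Mymk (listed as Tmem8c), whose product lets myoblasts fuse, at 7.67 (SD 0.91) in MYTHO-KD and 5.9 (SD 0.22) in scramble (difference 1.77, limma adjusted p = 0.0749). Myog, which encodes myogenin, was at 6.55 and 6.34 (limma adjusted p = 0.720). Of the 11 denervation response genes 2 were called higher and none lower, while 9 had the lower average in MYTHO-KD (median -0.07). They were Runx1 (difference 1.22, limma adjusted p = 0.146) and Chrna1, the acetylcholine receptor alpha subunit (difference 1.07, limma adjusted p = 0.141). Musk, the kinase that gathers the receptor at the synapse, was at 12.81 and 13.52 (difference -0.71, limma adjusted p = 0.199). It had an unadjusted p below 0.05 and stayed under 2-fold. Chrng, the fetal subunit of the same receptor, was at 4.31 and 4.41 and was not flagged as expressed in MYTHO-KD. At so low a signal a change can be hidden.

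Of 20 measured regulators of MHC isoform choice, 1 was called higher and none lower (median -0.03). Vgll2, a TEAD cofactor of skeletal muscle, was at 12.74 in MYTHO-KD and 11.37 in scramble (difference 1.37, limma adjusted p = 0.162). Sox6, which holds back slow genes, was at 13.18 and 13.47 (limma adjusted p = 0.615). Maf, of the large Maf factors linked to type IIB fibres, was at 10.59 and 11.11 (difference -0.52, limma adjusted p = 0.265), under 2-fold. Of the 16 genes for myosin folding and thick filament assembly 1 was called higher, Myom3, an M-band protein (9.61 and 8.32, difference 1.29, limma adjusted p = 0.146). Mybpc1, the slow myosin-binding protein C, was at 17.88 and 17.04 (difference 0.84, limma adjusted p = 0.179). Unc45b, the chaperone that folds the myosin head, was at 10.83 and 11.45 (difference -0.62, limma adjusted p = 0.268), and Smyd1, its partner in assembly, at 14.13 and 14.5 (difference -0.37, limma adjusted p = 0.398). Trim55 and Trim63 of the same list also had lower averages (differences -0.56 and -0.44, limma adjusted p = 0.183 and 0.381). The folding genes Unc45a, Hsp90aa1 and Hsp90ab1 differed by 0.04, 0.37 and 0.05. Apart from Myom3 none of these genes reached 2-fold, and none had an adjusted p under 0.05. Before adjustment, 2 genes of the list had a limma p below 0.05 as higher and 4 as lower, where 6.48% and 5.52% of all probe sets did. Of the 16 genes 8 had the higher and 8 the lower average in MYTHO-KD, and the median of the list was -0.11. None of the 5 other class II heavy chains, of non-muscle and smooth muscle cells (Myh9, Myh10, Myh11, Myh14) and of the specialised Myh15, was called (median 0.25). Myh10, non-muscle myosin IIB, differed most, by 0.68 (limma adjusted p = 0.344), followed by Myh9, non-muscle myosin IIA, by 0.43 (limma adjusted p = 0.555).

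**Figure D4:**
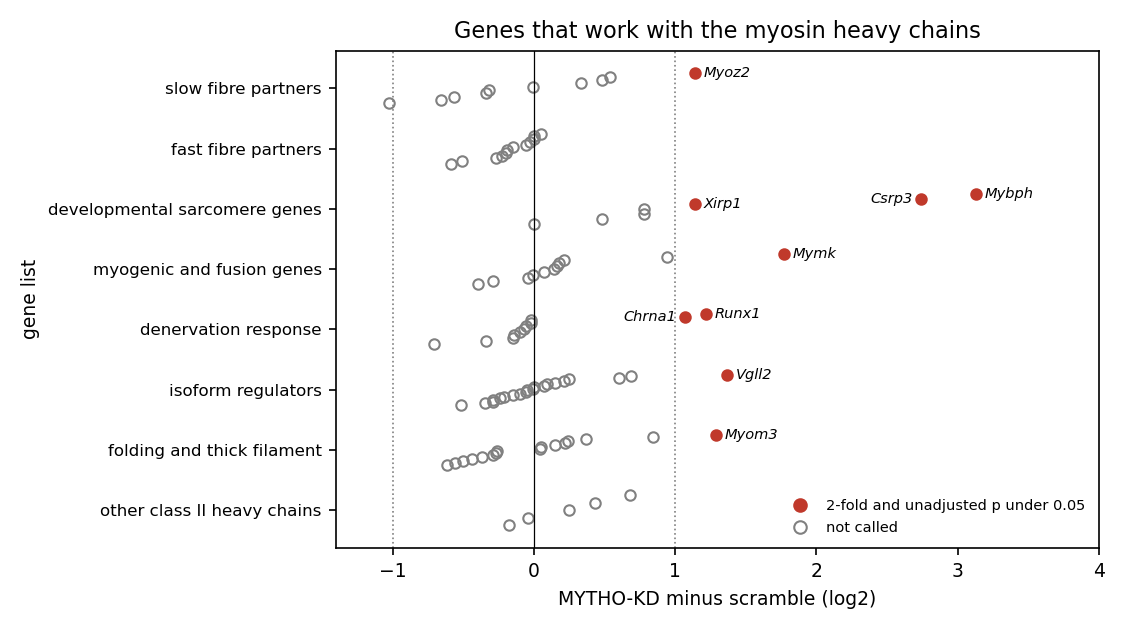
MYTHO-KD minus scramble (log2, horizontal axis) for each gene of 8 lists, 1 circle per gene, with dotted lines at 2-fold. Filled red circles passed 2-fold with an unadjusted p under 0.05, which were 3 developmental sarcomere genes, 2 denervation genes and 1 gene in each of 4 other lists, with none among the fast partners or the other heavy chains; the height of a circle within its row carries no value.

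Markers of other cells moved in the same comparison, where 0.86% of all probe sets were called higher and 0.257% lower. Of 10 macrophage markers 3 were called higher (Cd68, Lyz2 and C1qb), and the sum of the averages of all 10 as linear signal was 2130 in scramble and 4994 in MYTHO-KD. Lyz2, at 11.11 and 9.17, was the brightest of the 10 in MYTHO-KD and gave the largest part of that increase. Before adjustment, 6 of the 10 had a limma p below 0.05, all as higher, where 6.48% of all probe sets did. Of 10 fibroblast markers 5 were called higher (Bgn, Lum, Col3a1, Fn1 and Pi16), with sums of 104800 in scramble and 137500 in MYTHO-KD. The fibroblast sums were mostly the signal of Dcn (16.86 and 16.58), which was not called. No marker of either list was called lower, the median differences were 0.695 and 0.985, and the lowest scramble averages were 6.35 and 6.89 where the lowest in the table was 3.19. The part of these cells in the higher average of Myh3 was not tested. No marker of the 8 for endothelium (median difference 0.355), 7 for smooth muscle (0.09), 6 for adipocytes (-0.305), 6 for Schwann cells (-0.235) and 4 for blood cells (0.485) was called. Adipoq, an adipocyte hormone, spread widely in either group, with SDs of 2.13 and 2.22.

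The 6 skeletal muscle markers were all bright, with scramble averages from 15.31 to 19.93, and none was called. For 2 of them, Acta1 and Pygm, both groups stood at the top of the scale, so a call was not possible. Of the others, 2 had the higher and 2 the lower average in MYTHO-KD. Only Ryr1, at 16.34 and 16.73, had a limma p below 0.05 before adjustment (limma adjusted p = 0.408). Of the 6 heart markers, Nppa, Nppb, Myl7, Tnni3 and Ryr2 had scramble averages of at most 6.75. The sixth, Myoz2, is also a slow fibre gene. Neither of the 2 measured markers of eye and jaw muscle was called.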

How the data were processed

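Total RNA of samples from 8 GAS muscles, 4 per group, was hybridized to Clariom S Mouse arrays. SST-RMA, run by the authors in Transcriptome Analysis Console 4.0.1, gave the signals. They deposited, per the file headers, a log2 average and an SD for each group and probe set (mm10 annotation). The processing notes also name RMA and Affymetrix Expression Console. The kind of average is not given in the sources used here. SST-RMA stretches low signals, which affects fold changes. The table has 28 columns, of which 0 hold single arrays. Its fold changes, p-values and false discovery rates are the authors' comparison and were not used.

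Differences are MYTHO-KD minus scramble. Variances were pooled over the groups (6 degrees of freedom) and moderated with squeezeVar of limma 3.58.1 in R 4.3.3 (prior SD 0.284, prior degrees of freedom 5.85). Tests were two-sided, with Benjamini-Hochberg adjustment over 22206 probe sets, and calls followed the study's methods. The p-values measure only the spread between these samples. The procedure was checked on simulated arrays, drawn with no top of the scale and with independent groups. That check thus covers neither Myh2, Myh4 and Myh8 nor legs of the same mouse. If the averages are robust rather than plain means, p-values come out too low.

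Members and 18 gene lists (158 of 160 genes matched) were chosen with earlier results of these data known. All members are named, and of each list the called genes or the most different ones; further genes were named for their role after their values were seen. Arrays have no depth, and their number limits the precision.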

Additional observations from a re-analysis of the deposited data

How the results depend on the processing

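The count of members called higher (1, Myh3) fell to 0 with no moderation of the variances, to 0 with a mean-variance trend and robust fitting, to 0 with unequal variances and to 0 when 2-fold was joined with an adjusted p, and was 2 (with Myh1) at 1.5-fold. Over the alternatives the adjusted p of Myh3 ran from 0.318 to 0.654, the highest with unequal variances. The count of members called lower was 0 in every alternative run, where Myh4 and Myh8, at the top of the scale, could not be called. The genes of the lists called higher went from 17 to 28 at 1.5-fold and those called lower from 0 to 3, and these counts kept within 1.5 times in the other settings run. No member had an adjusted p below 0.05 in any alternative. The lowest were 0.0786 for Myh2 and 0.0860 for Myh1, both with the trend. For Myh2 the spread in MYTHO-KD was measured next to the top of the scale, so its p-values may be too low. Leaving out dim probe sets, probe sets not flagged as expressed, or all but 1 probe set per symbol, and centring on the median difference, changed no member's call. The fall of D230025D16Rik kept its call with no moderation, with the trend and with unequal variances, the last of these chosen after seeing the data. Its adjusted p, 0.0138 in the reported fit, was 0.173 with no moderation, 0.0025 with the trend and 0.363 with unequal variances. No paired analysis was possible because the table holds group values and no single arrays, and for the same reason no array was left out in turn. The mean over several probe sets was not run, as each member has 1. For Myh2, Myh4 and Myh8 the top of the scale limits what can be seen. For Myh3, Myh6, Myh7b and Myh13, whose signals were far lower, the floor of the scale can.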
